A study of Rattus norvegicus with 18 samples.

Results

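The guide strands of the miR-17-92 and miR-106b-25 clusters, with that of miR-92b, are 10 mature miRNAs measured here in rat heart: rno-miR-17-5p, rno-miR-18a-5p, rno-miR-19a-3p, rno-miR-19b-3p, rno-miR-20a-5p and rno-miR-92a-3p of the first cluster, rno-miR-106b-5p, rno-miR-93-5p and rno-miR-25-3p of the second, and rno-miR-92b-3p. They were chosen by name, as the main strands of both clusters and of the related miR-92b hairpin. The 10 were found among the 599 mature rat miRNAs listed in every library. All of them were among the 410 miRNAs with at least 1 read per 1000000 (RPM) in at least 6 libraries, the set that was tested. Small RNA of heart tissue was sequenced in 18 libraries, 6 in each of 3 groups. The QDG group came from spontaneously hypertensive rats (SHR) treated with QDG. The SHR group came from the same hypertensive strain, for which the design text gives NS as the treatment without QDG, and the WKY group from Wistar Kyoto rats, labelled as normal. The labels spell out neither QDG nor NS and give no age, sex, dose or length of treatment. The groups differ by strain, by treatment or, for QDG against WKY, by both, and no transgene is named.

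A miRNA guides Argonaute proteins to messenger RNAs that pair with its seed, a short stretch near its 5′ end, and those messages are then repressed. A hairpin precursor holds a strand on each arm, and the guide is the strand that is usually kept. The clusters are transcribed as single precursors and belong to a family that arose by duplication, with a further copy on the X chromosome. In mice, miR-17-92 is known to promote the division of heart muscle cells, miR-92a-3p to restrain the growth of blood vessels, and miR-25-3p to repress the calcium pump SERCA2a of heart muscle. miR-17-5p, miR-20a-5p, miR-106b-5p and miR-93-5p are known repressors of cell cycle inhibitors such as p21.

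The mature sequences show which members can act on the same messages and which can be mistaken for each other in counting. They are given 5′ to 3′ from RefSeq (GRCr8), where 10 of 10 members matched by name, with the seed, bases 2 to 8, in capitals. The following 4 members share the seed AAAGUGC.
miR-17-5p: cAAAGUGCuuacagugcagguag
miR-20a-5p: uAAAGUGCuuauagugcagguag
miR-106b-5p: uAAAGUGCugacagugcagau
miR-93-5p: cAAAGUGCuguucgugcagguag
The seed of miR-18a-5p, AAGGUGC, was found in no other member.
miR-18a-5p: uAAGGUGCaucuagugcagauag
The seed GUGCAAA belongs to both miR-19 strands.
miR-19a-3p: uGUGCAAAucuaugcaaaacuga
miR-19b-3p: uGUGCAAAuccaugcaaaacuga
The seed AUUGCAC is shared by 3 members, from both clusters and from miR-92b.
miR-92a-3p: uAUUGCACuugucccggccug
miR-25-3p: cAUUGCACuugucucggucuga
miR-92b-3p: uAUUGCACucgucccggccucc

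Counting positions from 1 at the 5′ end, miR-19a-3p differed from miR-19b-3p by the single substitution U11C. miR-17-5p differed from miR-20a-5p by C1U and C12U. miR-92a-3p differed from miR-92b-3p by U10C and G21C and by 1 base in length, and from miR-25-3p by U1C, C14U and C18U and likewise by 1 base in length. The labels do not say how a read that matches several miRNAs was counted, so the division of reads within these pairs is uncertain, most of all between miR-19a-3p and miR-19b-3p. No pair of rows among the members and their related entries was identical over the 18 libraries.

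The miR-17-92 guides lie on the plus strand of chromosome 15, at chr15:98587861-98588622 (GRCr8) from the first to the last mature base. This stretch of 762 bases holds 6 hairpins and lies in no other listed gene. The miR-106b-25 guides lie on the minus strand at chr12:22156652-22157123, a stretch of 472 bases with 3 hairpins inside Mcm7, a replication helicase gene on the same strand. miR-92b lies by itself on the minus strand at chr2:176931663-176931725. Mature miR-17-5p, miR-19b-3p and miR-92a-3p are each encoded at 2 loci, on chromosome 15 and in the X-linked copy, and their reads cannot be assigned to one of them. The other 7 members have 1 locus each.

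The deposited values are normalized read counts, which in every library were whole multiples of 1 read. The reads so recovered over all miRNAs ranged between 6805472 and 8574447 per library in QDG, between 6420666 and 10169581 in SHR, and between 6465025 and 9463554 in WKY. A count of 3 reads was worth 0.405 to 0.674 RPM, and such a floor covers counting error only, since reads amplified by PCR are not independent molecules. Pearson's r between any libraries lay between 0.986 and 0.997. The 6 heart muscle miRNAs of the marker list (miR-1-3p, miR-1b, miR-133a-3p, miR-208a-3p, miR-208b-3p and miR-499-5p) were all present, with sums of 487333 to 575474 RPM in QDG, 504470 to 587499 RPM in SHR and 499501 to 620182 RPM in WKY. The 2 endothelial miR-126a strands summed to 115468 to 129834 RPM in QDG, 114087 to 126819 RPM in SHR and 88331 to 127217 RPM in WKY, the lowest value being that of WKY replicate 1. The 5 fibroblast and smooth muscle miRNAs of the list summed to 66440 to 84154 RPM in QDG, 57271 to 79053 RPM in SHR and 61420 to 86215 RPM in WKY. The labels do not state that every library came from a separate rat, so the p-values measure the spread between these libraries, which may in part be technical.

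The 10 guides were minor species of the heart. Together they made up 0.182% of all miRNA reads in QDG, 0.198% in SHR and 0.191% in WKY. The miR-106b-25 guides outweighed those of miR-17-92 in the summed level. The 3 miR-106b-25 guides summed to 1443 ± 63.9 RPM in QDG, 1573 ± 217 RPM in SHR and 1545 ± 155 RPM in WKY (SD, n = 6 each). The 6 miR-17-92 guides summed to 1139 ± 165 RPM in QDG, 1176 ± 50.4 RPM in SHR and 1205 ± 184 RPM in WKY (SD, n = 6 each). By seed, AUUGCAC held 52.0 ± 4.31% of the members' reads over the 18 libraries, AAAGUGC 40.9 ± 3.11%, GUGCAAA 6.96 ± 1.65% and AAGGUGC 0.177 ± 0.0436%. These sums are descriptions and were not tested.

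The order of the most and the least abundant members was the same in every library, while neighbours in the middle traded places. miR-25-3p was the most abundant at 1121.5 ± 148 RPM over the 18 libraries (SD), rank 63 of the 599 listed miRNAs. It was followed by miR-20a-5p at 456 ± 56.5 RPM, and miR-25-3p exceeded it in 18 of 18 libraries. miR-93-5p averaged 279 ± 36.7 RPM, miR-92a-3p 278 ± 48.6 RPM and miR-17-5p 247 ± 29.1 RPM. The order of these 3 was not fixed: miR-93-5p exceeded miR-92a-3p in 10 of 18 libraries, and miR-92a-3p exceeded miR-17-5p in 13 of 18. miR-106b-5p at 120 ± 14.8 RPM and miR-19b-3p at 109 ± 26.9 RPM also traded places, with miR-106b-5p the higher in 12 of 18 libraries. miR-19b-3p exceeded miR-19a-3p, at 78.5 ± 21.6 RPM, in 18 of 18 libraries. The scarce end held miR-18a-5p at 4.76 ± 1.19 RPM, from 15 to 44 reads a library, and miR-92b-3p at 0.921 ± 0.389 RPM, from 1 to 9 reads a library. Since mature miRNAs are of nearly equal length, these levels were compared without a length correction, but the efficiency with which each strand was cloned was not measured.

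**Figure D1:**
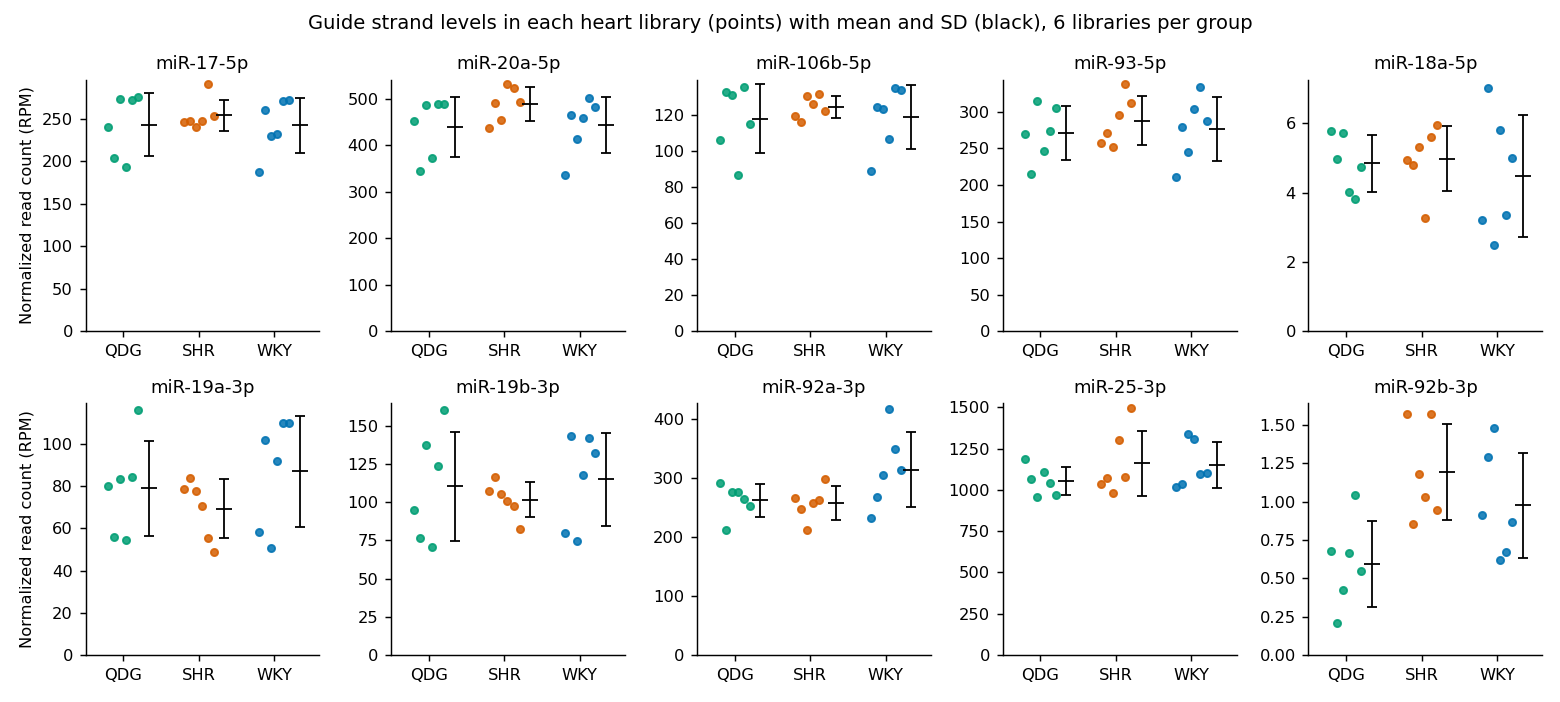
Each panel plots a guide strand's normalized read count (RPM, linear axis from 0) in the 6 QDG, 6 SHR and 6 WKY libraries, with a point for each library and the group's mean and SD in black. The groups overlap in every panel, and WKY miR-92a-3p reaches 416 RPM while the highest QDG library reaches 292 RPM and the highest SHR library 299 RPM.

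The effect of QDG in the hypertensive strain was examined in QDG against SHR. There, 0 of the 10 guides passed limma's test at an adjusted p of 0.05, and 0% of the 410 miRNAs tested did so. At an unadjusted p under 0.05 stood 1 of the 10 guides and 15 of the 410 miRNAs, and edgeR, DESeq2 and limma-voom also called 0 of each. The guides' log2 fold changes, on the scale of log2(RPM + 1), ranged between -0.47 and 0.17 with a median of -0.08, beside a median of 0.02 over all miRNAs. The exception by unadjusted p was the scarcest member. miR-92b-3p, whose seed is that of miR-92a-3p and miR-25-3p, was read 1, 2, 3, 4, 4 and 6 times in the QDG libraries and 5, 6, 6, 7, 7 and 9 times in the SHR libraries. That corresponds to 0.206 to 1.04 RPM with a median of 0.608 RPM in QDG, and 0.855 to 1.57 RPM with a median of 1.10 RPM in SHR. All 6 QDG libraries lay below the SHR mean, while QDG replicate 5 overlapped the SHR range. The log2 fold change was -0.47 ± 0.18 (SE; unadjusted p = 0.0140, limma), with an adjusted p of 0.983, so the difference did not pass the test. The pseudocount shrinks the change of so scarce a strand: the log2 fold change was -0.18 with a pseudocount of 4, -0.65 with one of 0.5, -0.94 by edgeR, -0.98 by DESeq2 and -0.93 by limma-voom, each with an adjusted p of 0.955 or more. miR-92b-3p reached the filter's 1 RPM in SHR replicates 1, 3, 4 and 5, WKY replicates 2 and 3, and QDG replicate 5. Without the SHR libraries it would have failed the filter, so its entry into the test depended on the group where it was highest. With no filter on low values its adjusted p was 0.973 (limma). Limma without trend or robust moderation gave the lowest adjusted p among these alternatives, 0.358. Over the fits that each left out 1 library, the adjusted p of miR-92b-3p ranged between 0.730 and 0.999 (limma).

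The abundant guides overlapped between QDG and SHR. miR-25-3p, the calcium pump repressor, lay between 958 and 1188 RPM in QDG with a median of 1053 RPM, and between 982 and 1497 RPM in SHR with a median of 1073 RPM. The 2 highest of these libraries were SHR replicates 6 and 4, and the other 4 SHR libraries lay within the QDG range. Its log2 fold change was -0.13 ± 0.10 (SE), with a 95% interval from -0.34 to 0.08. miR-20a-5p lay between 345 and 489 RPM in QDG, with a median of 469 RPM, against 437 to 531 RPM in SHR, with a median of 491 RPM. QDG replicates 2 and 4 were lower than any SHR library, and the log2 fold change was -0.16 ± 0.11 (SE), with a 95% interval from -0.38 to 0.06. miR-92a-3p was nearly level, at 262 ± 28.1 RPM in QDG and 257 ± 28.3 RPM in SHR (SD, n = 6 each), with a 95% interval for the log2 fold change from -0.21 to 0.27. For the other 6 guides the log2 fold changes ran from -0.09 for miR-106b-5p to 0.17 for miR-19a-3p.

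Many heart miRNAs passed the test between SHR and WKY, and none of the guides did. In SHR against WKY, limma called 95 of 410 miRNAs, 33 higher and 62 lower, which is 23.2% of those tested, and 0 of the 10 guides. At an unadjusted p under 0.05 stood 1 guide of 10 and 141 of the 410 miRNAs, and edgeR and limma-voom called 0 guides and DESeq2 1. The guides' log2 fold changes ranged between -0.29 and 0.17, with a median of 0.07, and that of all miRNAs was -0.07. Between the libraries of SHR and WKY, 10.2% of miRNAs did not overlap at all, and 0 of the 10 guides were among them.

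miR-92a-3p, the vessel restraining guide, came nearest to a call. It lay between 212 and 299 RPM in SHR with a median of 260 RPM, and between 233 and 416 RPM in WKY with a median of 309 RPM. In 6 of 6 SHR libraries it was below the WKY mean, but 2 WKY libraries, replicates 1 and 2, lay inside the SHR range. The means were 257 ± 28.3 RPM in SHR and 314 ± 63.8 RPM in WKY (SD, n = 6 each), a log2 fold change of -0.27 ± 0.12 (SE) with an adjusted p of 0.100 (limma). WKY replicate 1 held the lowest WKY value, and without that library the log2 fold change was -0.35 with an adjusted p of 0.0205. Over the fits that each left out 1 library, the adjusted p ranged between 0.0205 and 0.280. Under TMM scaling the log2 fold change was -0.17 with an adjusted p of 0.244 (limma). In bulk tissue, fewer cells of a type and less RNA per cell cannot be told apart, and the part of other cell types in this result was not tested. The endothelial marker sum averaged 119307 RPM in SHR and 112968 RPM in WKY. Its medians ran the other way, at 116644 RPM in SHR and 117468 RPM in WKY. The fibroblast and smooth muscle sum averaged 66139 RPM in SHR and 75110 RPM in WKY, with medians of 62634 RPM in SHR and 77454 RPM in WKY. The red blood cell sum of the marker list averaged 4988 RPM in SHR and 5051 RPM in WKY, with medians of 4849 RPM and 5295 RPM. Its leukocyte sum averaged 1305 RPM in SHR and 1410 RPM in WKY, with medians of 1305 RPM and 1473 RPM. The heart muscle sum was higher in SHR, with medians of 563141 RPM in SHR and 535596 RPM in WKY.

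miR-20a-5p crossed the threshold in SHR against WKY under some scalings and not on the authors' scale. It lay between 437 and 531 RPM in SHR with a median of 491 RPM, and between 336 and 503 RPM in WKY with a median of 461 RPM. In 5 of 6 SHR libraries it was above the WKY mean, and the lowest value was that of WKY replicate 1. On the authors' scale the log2 fold change was 0.15 ± 0.11 (SE) with an adjusted p of 0.374 (limma). Under TMM scaling, which moved the median of all miRNAs by 0.09 on the log2 scale, it was 0.25 with an adjusted p of 0.0322. RLE scaling and DESeq2 gave 0.23 each, with adjusted p values of 0.0481 and 0.0275. TMM moved other guides by similar amounts, for example miR-25-3p to 0.11, against 0.0061 on the authors' scale. Without WKY replicate 1 and SHR replicate 5 together, the log2 fold change of miR-20a-5p on the authors' scale was 0.05.

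The remaining members of the AAAGUGC family had similar medians in both strains. miR-17-5p lay between 240 and 291 RPM in SHR and between 187 and 272 RPM in WKY, with medians of 247 RPM in each. miR-106b-5p had medians of 124 RPM in SHR and 124 RPM in WKY. The spread of miR-106b-5p was 4.87% of the mean in SHR, against 14.9% in WKY and 16.3% in QDG, and these spreads were not tested. miR-93-5p averaged 288 ± 33.4 RPM in SHR and 277 ± 43.6 RPM in WKY (SD, n = 6 each). Their log2 fold changes lay between 0.06 and 0.08, each with an SE of 0.11 or 0.12.

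Pooled over the 18 libraries, the miR-19 strands varied most of the 8 members above 10 RPM, with an SD of 27.5% of the mean for miR-19a-3p and 24.6% for miR-19b-3p. Within SHR alone the SD of miR-19b-3p was 11.2% of its mean, below the 17.1% of miR-25-3p. miR-19a-3p lay between 48.9 and 84.0 RPM in SHR with a median of 74.3 RPM, and between 50.6 and 110 RPM in WKY with a median of 97.0 RPM. The WKY libraries fell into 4 at 92.0 RPM or more and 2, replicates 1 and 3, at 58.1 RPM or less. The log2 fold change was -0.29 ± 0.21 (SE) with an adjusted p of 0.385 (limma). miR-19b-3p lay between 82.4 and 116 RPM in SHR and between 74.9 and 143 RPM in WKY, and the same WKY replicates 1 and 3 were its lowest. Its log2 fold change was -0.14 ± 0.20 (SE). miR-18a-5p averaged 4.97 ± 0.939 RPM in SHR and 4.47 ± 1.75 RPM in WKY, and miR-92b-3p 1.19 ± 0.313 RPM in SHR and 0.975 ± 0.345 RPM in WKY (SD, n = 6 each). miR-25-3p, the most abundant, averaged 1161 ± 198 RPM in SHR and 1150 ± 139 RPM in WKY, with a 95% interval for the log2 fold change from -0.21 to 0.22.

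**Figure D2:**
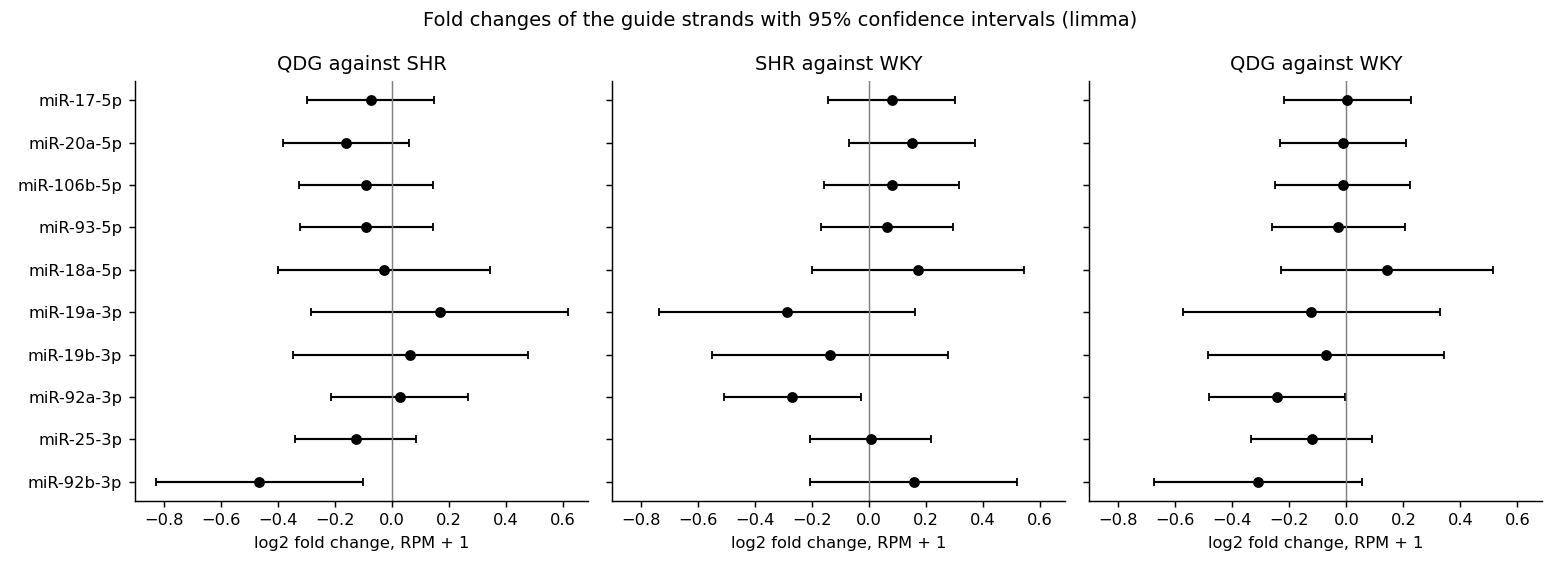
Points are limma's log2 fold changes of RPM + 1 for the 10 guide strands in QDG against SHR, SHR against WKY and QDG against WKY, and bars are 95% confidence intervals without correction for multiple tests. The interval of miR-92b-3p in QDG against SHR and those of miR-92a-3p in SHR against WKY and in QDG against WKY lie below 0, and none of the 3 passed the adjusted threshold.

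Treated hypertensive rats were also set against the normal strain. These groups differ by strain and by QDG treatment at once, so the parts of strain and treatment cannot be told apart in this comparison. In QDG against WKY, limma called 73 of 410 miRNAs, 30 higher and 43 lower, which is 17.8% of those tested, and 0 of the 10 guides. At an unadjusted p under 0.05 stood 1 guide of 10 and 127 of the 410 miRNAs, and edgeR, DESeq2 and limma-voom each called 0 guides. This comparison shares its WKY libraries with SHR against WKY and its QDG libraries with QDG against SHR. No overlap between groups was seen in 8.05% of miRNAs and in 0 of the 10 guides. The guides' log2 fold changes ranged between -0.31 and 0.14 with a median of -0.05, beside -0.06 over all miRNAs.

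miR-92a-3p again came nearest to a call. Its QDG libraries lay between 211 and 292 RPM with a median of 270 RPM, against the WKY range of 233 to 416 RPM with a median of 309 RPM. All 6 QDG libraries were below the WKY mean, and the groups overlapped through WKY replicates 1 and 2. The log2 fold change was -0.24 ± 0.12 (SE) with an adjusted p of 0.155 (limma), and without WKY replicate 1 it was -0.32 with an adjusted p of 0.0362. Under TMM scaling it was -0.16 with an adjusted p of 0.293 (limma). miR-92b-3p had a log2 fold change of -0.31 ± 0.18 (SE), at 0.595 ± 0.281 RPM in QDG and 0.975 ± 0.345 RPM in WKY (SD, n = 6 each). miR-17-5p, miR-20a-5p, miR-106b-5p and miR-93-5p had log2 fold changes between -0.03 and 0.0041, each with an SE of 0.11 or 0.12. Scaling alone turned the sign of miR-20a-5p, miR-106b-5p and miR-93-5p, which reached 0.06 to 0.07 under TMM.

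The make-up of each cluster was described as a share of its guides, a quantity that scaling of a library does not alter. Since miR-17-5p, miR-19b-3p and miR-92a-3p are also encoded on the X chromosome, the miR-17-92 shares are not those of the chromosome 15 precursor alone. Within miR-17-92, miR-20a-5p held 38.5 ± 0.611% in QDG, 41.5 ± 1.83% in SHR and 36.8 ± 1.27% in WKY (SD, n = 6 each). The WKY shares, from 34.6 to 38.4%, overlapped the SHR shares, from 38.3 to 43.9%, through 1 SHR library, and the QDG shares lay between 37.6 and 39.5%. miR-92a-3p held 23.3 ± 3.16% in QDG, 21.9 ± 2.10% in SHR and 26.1 ± 3.48% in WKY. miR-17-5p held 21.4 ± 1.01% in QDG, 21.6 ± 1.09% in SHR and 20.2 ± 1.39% in WKY. miR-18a-5p, although encoded between miR-17 and miR-19a in the same precursor, made up 0.408 ± 0.0987% over the 18 libraries. Within miR-106b-25, miR-25-3p held 73.6 ± 3.11%, miR-93-5p 18.4 ± 2.35% and miR-106b-5p 7.96 ± 1.19% over the 18 libraries. Shares of a sum rise and fall against each other, and no test was made of them.

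**Figure D3:**
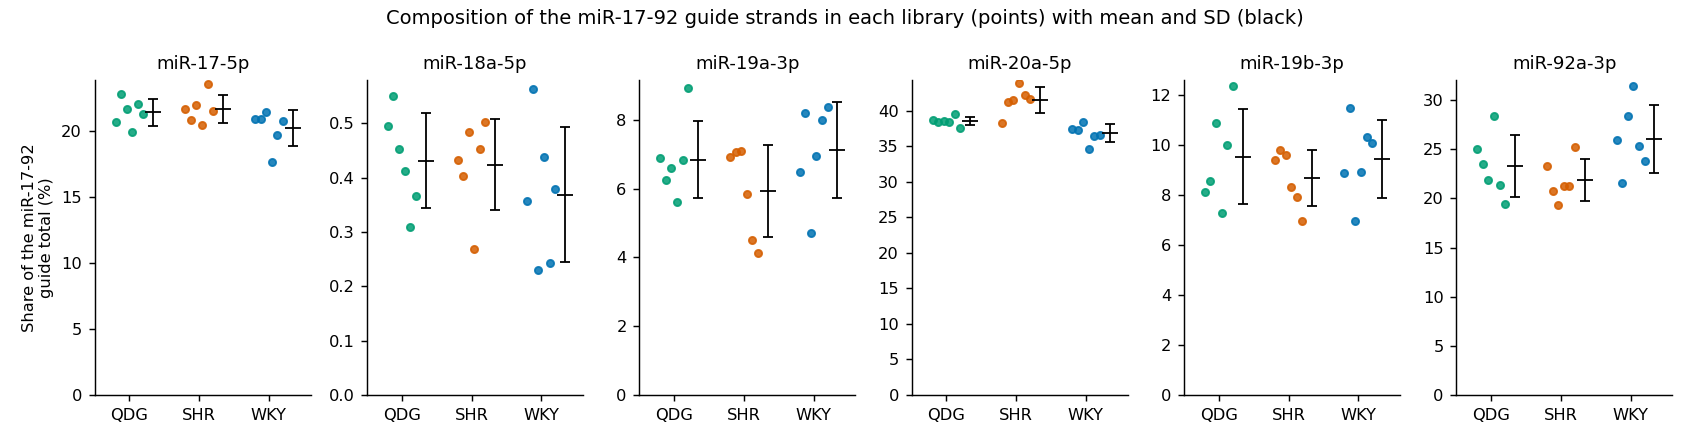
Each panel plots a guide's share (%, linear axis from 0) of the summed miR-17-92 guides in the 6 QDG, 6 SHR and 6 WKY libraries, with a point for each library and the mean and SD in black. miR-20a-5p averages 38.5% in QDG, 41.5% in SHR and 36.8% in WKY, and miR-92a-3p spans 19.4 to 31.5% over all libraries.

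The opposite arms of the hairpins were compared with the guides. The related list held 21 names, namely passenger strands, the X-linked copy and other miRNAs with the AUUGCAC seed. Of these, 15 were in the files and 11 passed the filter, and the other 6 names were not analysed here. None of the 11 passed limma's adjusted threshold in any comparison. The guide made up 99.2 ± 0.249% of its hairpin's reads for miR-93 and 99.8 ± 0.110% for miR-25 over the 18 libraries (SD). For guides encoded at 2 loci the shares are not those of a single hairpin. miR-17-5p made up 96.5 ± 0.707% of its reads summed with both passenger strands, and miR-92a-3p 99.6 ± 0.200% of its reads summed with miR-92a-1-5p of chromosome 15 alone. For miR-18a the guide's share was 76.7 ± 9.74%, with 0.207 to 2.37 RPM on the other arm.

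The arms of miR-106b were of similar abundance, with the 5p arm at 46.9 ± 4.95% of the hairpin's reads over the 18 libraries (SD). Its 3p arm, which has a seed found in none of the members, is shown here.
miR-106b-3p: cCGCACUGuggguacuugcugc
The nominal guide miR-106b-5p made up 47.7 ± 5.84% of the hairpin's reads in QDG, 49.3 ± 2.42% in SHR and 43.7 ± 4.82% in WKY (SD, n = 6 each). The 3p arm was the higher one in 3 of 6 QDG libraries, 4 of 6 SHR libraries and 6 of 6 WKY libraries. Its level lay between 117 and 142 RPM in QDG, between 114 and 143 RPM in SHR and between 128 and 173 RPM in WKY. In SHR against WKY, 6 of 6 SHR libraries were below the WKY mean for the 3p arm, with a log2 fold change of -0.25 ± 0.09 (SE) and an adjusted p of 0.0592 (limma). In QDG against WKY it was -0.24 ± 0.09 (SE), with an adjusted p of 0.0752 (limma), and in QDG against SHR 0.0026 ± 0.09 (SE).

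The log2 ratio of miR-106b-5p to miR-106b-3p was -0.13 ± 0.34 in QDG, -0.04 ± 0.14 in SHR and -0.36 ± 0.28 in WKY (SD, n = 6 each). It was higher by 0.33 in SHR than in WKY, in 6 of 6 SHR libraries relative to the WKY mean. The two-sided exact permutation test of 6 against 6 libraries gave p = 0.0303 for this ratio, and 0.545 after adjustment over the 18 ratio tests made, of 6 guides in 3 comparisons. The smallest p this design allows is 0.00216, and no ratio of the 18 passed the adjustment. Both arms share the scaling of their library, so the ratio depends on it only through the pseudocount of 1 RPM added to each arm.

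**Figure D4:**
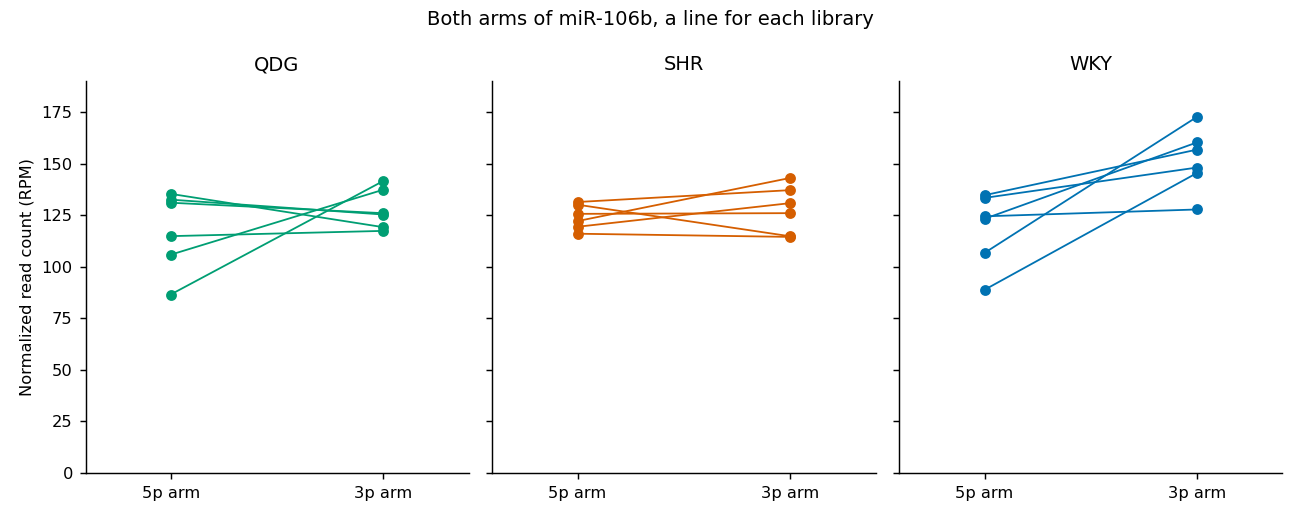
Lines join the normalized read counts (RPM, linear axis from 0) of the miR-106b 5p and 3p arms in the same library, with 6 libraries each for QDG, SHR and WKY. The 3p arm is the higher in 3 QDG, 4 SHR and 6 WKY libraries.

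Some strands of the X-linked copy can be told from those of chromosome 15. The X-linked hairpin that encodes a second miR-17-5p has a distinct 3p arm, printed below the one from chromosome 15.
miR-17-1-3p: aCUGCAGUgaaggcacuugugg
miR-17-2-3p: aCUGCACUgcaagcacuucuuac
miR-17-1-3p of chromosome 15 averaged 4.38 ± 1.19 RPM and miR-17-2-3p of the X chromosome 4.41 ± 0.992 RPM over the 18 libraries (SD). The passenger arms do not measure the guides' share from either locus. Of the strands found at the X-linked copy alone, miR-363-3p, with the AUUGCAC seed, averaged 83.2 ± 7.89 RPM in QDG, 73.3 ± 8.08 RPM in SHR and 72.03 ± 8.38 RPM in WKY (SD, n = 6 each). miR-20b-5p, with the AAAGUGC seed, averaged 8.25 ± 2.0 RPM in QDG, 9.06 ± 1.76 RPM in SHR and 7.37 ± 2.35 RPM in WKY. miR-32-5p, encoded elsewhere with the AUUGCAC seed, averaged 96.5 ± 9.0 RPM in QDG, 91.2 ± 5.82 RPM in SHR and 85.5 ± 15.4 RPM in WKY.

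Whether the guides vary together between libraries of the same group was examined by correlation. Values were taken as log2(RPM + 1), each group's mean was subtracted, and 45 pairs were compared over 18 libraries, with 100000 permutations within groups and Benjamini-Hochberg adjustment over the pairs. By Pearson's r 11 of 45 pairs were called, and all 11 were positive. By Spearman's rho 6 pairs were called, each of them among the 11. The share of pairs called among all miRNAs tested was not computed, so neither count can be called particular to the guides. The strongest correlation was that of miR-19a-3p with miR-19b-3p, the pair that differs by 1 base, at r = 0.93 and rho = 0.87. Its permutation p of 1e-05, the smallest that 100000 draws can give, was 0.000225 after adjustment. miR-17-5p with miR-20a-5p had r = 0.91 and rho = 0.86. miR-20a-5p with miR-93-5p, which lie in different clusters on different chromosomes and share a seed, had r = 0.90 and rho = 0.83. Without the 2 libraries farthest from the median, these 3 had r = 0.91, 0.86 and 0.82. Within single groups of 6 libraries, miR-20a-5p with miR-93-5p had r = 0.93 in QDG, 0.80 in SHR and 0.95 in WKY. For miR-17-5p with miR-20a-5p the values were 0.95 in QDG, 0.53 in SHR and 0.96 in WKY. Those of miR-19a-3p with miR-19b-3p were 0.94 in QDG, 0.93 in SHR and 0.99 in WKY.

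No pair within the miR-106b-25 cluster was called. miR-106b-5p with miR-93-5p had r = 0.40 (rho = 0.30; adjusted permutation p = 0.361). miR-93-5p with miR-25-3p had r = 0.12 and miR-106b-5p with miR-25-3p r = -0.12. miR-25-3p, the most abundant guide, had no called correlation on this scale, the highest being 0.57 with miR-92a-3p of the same seed (adjusted permutation p = 0.0592) and the lowest -0.47 with miR-19b-3p (adjusted permutation p = 0.0848). Of the 18 pairs within a cluster 6 were called, and of the 27 pairs across clusters 5 were called. Of the 10 pairs with a shared seed 5 were called, and of the 35 pairs with different seeds 6 were called. The pairs share libraries and members, and these splits were not tested.

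Several called pairs rested on few libraries or on scale. miR-17-5p with miR-106b-5p fell to r = 0.34, against 0.71 over all 18 libraries, when WKY replicate 1 and QDG replicate 4 were left out. The miR-19 strands correlated with miR-17-5p, miR-20a-5p and miR-93-5p at r = 0.84 to 0.96 within QDG and 0.79 to 0.84 within WKY, but at -0.84 to -0.29 within SHR. The pooled values for these pairs therefore do not describe SHR. After TMM scaling, 3 of the 11 pairs kept their call: miR-19a-3p with miR-19b-3p at r = 0.92, miR-17-5p with miR-20a-5p at 0.83 and miR-20a-5p with miR-93-5p at 0.80. The other 8 fell below the threshold, with r between 0.47 and 0.72. On that scale miR-19b-3p with miR-25-3p was called as well, at r = -0.67 (adjusted permutation p = 0.0217).

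**Figure D5:**
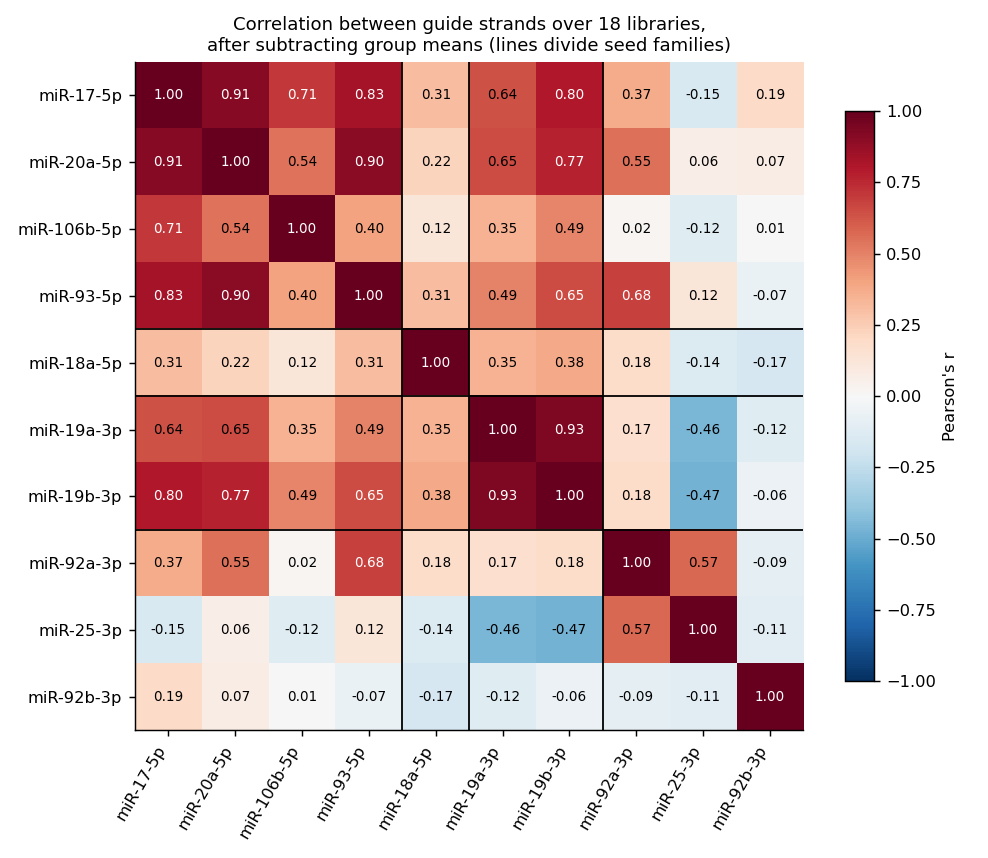
Cells give Pearson's r of log2(RPM + 1) between guide strands over 18 libraries after each group's mean was subtracted, with colours from -1 to 1 and lines dividing seed families. In the AAAGUGC block, miR-17-5p, miR-20a-5p and miR-93-5p have r of 0.83 to 0.91 with each other. miR-106b-5p of the same block has r of 0.71 with miR-17-5p, 0.54 with miR-20a-5p and 0.40 with miR-93-5p. The row of miR-25-3p stays between -0.47 and 0.57.

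The miRNAs outside the 10 with the most similar library to library pattern were sought among the other 400 tested, by Pearson's r of the same centred values over 18 libraries. For miR-19a-3p and miR-19b-3p this was miR-30e-5p, with r = 0.86 and 0.92. For miR-17-5p it was miR-133a-5p, the passenger arm of an abundant muscle miRNA, with r = 0.90. miR-20a-5p was most like miR-190a-5p (r = 0.89), miR-92a-3p most like miR-351-5p (r = 0.90), and miR-106b-5p most like miR-29c-3p (r = 0.91). miR-93-5p was most like miR-99a-3p (r = 0.88) and miR-25-3p most like miR-151-3p (r = 0.85). The scarce miR-18a-5p and miR-92b-3p reached at most 0.61, with miR-3064-5p, and 0.67, with miR-188-5p. These are the highest of 400 values each and carry no test.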

How the data were processed

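Heart small RNA libraries of 3 groups, 6 each, were grouped by their titles. Per the labels' protocols, total RNA was extracted with Trizol and libraries were made with a NEBNext small RNA kit. FastQC, TopHat2 and limma appear in the submitters' processing notes without versions or roles, and no label names the build or annotation. The deposited signal is a normalized read count per mature miRNA, per the file headers. Each library's values are multiples of 1 step, by which whole reads were recovered for 10782 of 10782 values (tolerance 0.01). The unit is reads per 1000000 of a divisor between 4449279 and 7403775 reads, which is below the library's miRNA total. All columns were mapped to a sample.

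The filter required at least 1 RPM in 6 libraries or more, and limma (3.58.1, R 4.3.3; trend and robust moderation) was fitted to log2(RPM + 1) of all 18 libraries, with Benjamini-Hochberg adjustment over 410 miRNAs at 0.05. Fold changes on this scale understate those of scarce miRNAs. Alternatives on the recovered reads were edgeR (4.0.16), DESeq2 (1.42.0) and limma-voom, beside other pseudocounts, filters, scalings and omitted libraries. Arm ratios were compared by two-sided exact permutation. The limma fit was tested on simulated data whose changes were larger than any that the main limma fit, with a pseudocount of 1, gave for a guide. That run does not show how often changes as small as those of the guides would be found. Every one of the 10 members is named, and of the related list those called and the nearest. The members and lists were chosen with earlier results of these data known. Same-numbered libraries of different groups had correlations of their deviations between -0.17 and 0.23, so the numbers were not used as pairs.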

Additional observations from a re-analysis of the deposited data

Results flagged for a closer look

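Of 30 groups of 6 libraries, the 10 guides in 3 groups, 1 held a library far from the others by Dixon's criterion, and chance flags about 1 group in 20. It was miR-17-5p in SHR, where replicate 5 reached 291.0 RPM and the nearest library 253.7 RPM, a gap of 0.738 of the group's range. The same library held the highest miR-93-5p value of all 18, at 338 RPM. Without SHR replicate 5 the log2 fold change of miR-17-5p in SHR against WKY was 0.04, against 0.08 with it, and neither passed the test.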

How the results depend on the processing

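Over the alternatives other than leaving out 1 library, 439 of 474 values of single guides kept their direction and side of the threshold, 5 became called and 30 uncalled values changed sign. The number of guides called in SHR against WKY became 1 under TMM, RLE and DESeq2 (miR-20a-5p) and 1 without WKY replicate 1 and SHR replicate 5 together (miR-92a-3p, -0.36, adjusted p = 0.0288, limma). In QDG against WKY it became 1 without the same libraries (miR-92a-3p, -0.32, adjusted p = 0.0400, limma). Leaving out each library in turn gave 0 to 1 guides called in SHR against WKY and in QDG against WKY, the 1 being miR-92a-3p without WKY replicate 1, and 0 in QDG against SHR. The count over all miRNAs then ranged over 81 to 106 in SHR against WKY and 64 to 80 in QDG against WKY, and was 0 in QDG against SHR. With the replicate block, 93 miRNAs were called in SHR against WKY, 77 in QDG against WKY and 0 in QDG against SHR, with 0 guides in each. In 2 of 18 libraries the closest library of another group had the same number. Scaling changed the share of calls that were higher: 34.7% as deposited and 54.7% under TMM in SHR against WKY, and 41.1% as deposited and 61.0% under TMM in QDG against WKY.

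The causes of the sign changes were not tested, and none concerned a called guide. In QDG against WKY, miR-20a-5p was 0.0070 by totals, 0.071 by TMM, 0.031 by RLE, 0.028 by upper quartile, 0.021 by edgeR, 0.038 by DESeq2 and 0.016 by voom. miR-106b-5p was 0.0068, 0.071, 0.030, 0.028, 0.024, 0.040 and 0.012 under the same settings. miR-93-5p was 0.056 by TMM, 0.016 by RLE, 0.013 by upper quartile, 0.0031 by edgeR, 0.021 by DESeq2 and 0.00091 by voom, and miR-19b-3p 0.011 by TMM. In QDG against SHR, miR-92a-3p was -0.0060 by RLE, -0.0042 by DESeq2 and -0.024 without the 10 most abundant miRNAs. Without WKY replicate 1 and SHR replicate 5, miR-18a-5p was 0.0038 in QDG against SHR and miR-17-5p -0.068 in QDG against WKY. The same omission gave, in SHR against WKY, -0.032 for miR-17-5p, -0.018 for miR-106b-5p, -0.059 for miR-93-5p and -0.0082 for miR-25-3p. It turned the arm ratios of miR-18a in QDG against WKY to -0.038 and of miR-93 in QDG against SHR to 0.038, and a pseudocount of 0.5 that of miR-92a in QDG against SHR to -0.00031.

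Leaving out 1 library gave ranges across 0 for 11 uncalled values. In QDG against SHR these were -0.12 to 0.024 for miR-18a-5p, -0.055 to 0.18 for miR-19b-3p and -0.028 to 0.086 for miR-92a-3p. In SHR against WKY they were -0.00097 to 0.12 for miR-106b-5p, -0.012 to 0.12 for miR-93-5p and -0.071 to 0.051 for miR-25-3p. In QDG against WKY they were -0.068 to 0.067 for miR-17-5p, -0.19 to 0.043 for miR-19b-3p, -0.090 to 0.054 for miR-20a-5p, -0.093 to 0.072 for miR-106b-5p and -0.10 to 0.037 for miR-93-5p. Under TMM, 9 uncalled correlations turned negative: miR-17-5p with miR-92a-3p (-0.062), miR-18a-5p with miR-106b-5p (-0.034), miR-19a-3p with miR-92a-3p (-0.10), miR-19b-3p with miR-92a-3p (-0.16), miR-20a-5p with miR-25-3p (-0.079), miR-92a-3p with miR-106b-5p (-0.41), miR-92b-3p with miR-106b-5p (-0.023), miR-106b-5p with miR-93-5p (-0.028) and miR-93-5p with miR-25-3p (-0.089). The filter on a mean of 10 RPM left miR-18a-5p and miR-92b-3p untested, whose few reads limit what these depths can show.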
